A study of Mus with 6 samples.

Results

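Nrxn2 and Nrxn3, Nlgn1, Nlgn2 and Nlgn3, and Lrrtm1, Lrrtm2, Lrrtm3 and Lrrtm4 were read from the deposited gene table by their symbols, which gave 9 genes of the 54532 listed. They were followed in 6 mouse libraries labelled as basolateral amygdala and female, 3 of wild-type (WT) and 3 of Cntnap4 knockout (KO) genotype. Cntnap4 encodes a membrane protein of the neurexin superfamily, and the comparison asks which transcripts of this adhesion system differ when it is disrupted. Beyond the genotype, the sources used here do not give the allele, the strain, the age or any pooling of animals. No source used here says that each library is a separate animal, so the p-values below measure the spread between these libraries, which may be technical. Values are FPKM, fragments scaled to gene length and to library size. Levels of different genes are compared on this scale, so their order and ratios depend on the length given for each gene.

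Neurexins are presynaptic adhesion proteins that are made in long and short forms from separate promoters and in many splice variants. Across the synaptic cleft they bind neuroligins and the Lrrtm proteins, which carry leucine-rich repeats and bind an overlapping site on neurexins. Nlgn1 is known mainly from excitatory synapses, Nlgn2 from inhibitory synapses and Nlgn3 from both, and Lrrtm proteins are known from excitatory synapses, where Lrrtm1 and Lrrtm2 help to hold AMPA-type glutamate receptors. The table gives 1 value per gene, so long and short neurexin forms and splice variants were summed. RefSeq on the GRCm38 assembly lists 51 transcripts for Nrxn3, of which 3 are curated messenger RNAs, 17 for Nlgn1 (5 curated), 10 for Lrrtm4 (4 curated) and 1 each, curated, for Nlgn3, Lrrtm2 and Lrrtm3.

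The libraries held 15933029 to 17789798 reads, recovered from the FPKM values, and the 9 genes rested on 267 (Lrrtm4) to 11837 (Nrxn2) reads per library. Cntnap4 had 3.53, 3.9 and 2.15 FPKM in WT1, WT2 and WT3 and 1.08, 1.19 and 1.28 in KO1, KO2 and KO3, with no overlap. Markers of neighbouring tissue differed between libraries. Summed FPKM of 7 striatal neuron markers, among them Drd1, Drd2 and Ppp1r1b, was 830 in WT3 and 343 in KO3 against 54.9 to 204 in the other libraries, and mitochondrial genes took 8.34% and 6.31% of reads there against 4.10% to 5.22% elsewhere. WT1 was lowest in Pvalb, an interneuron calcium buffer, at 5.19 FPKM against 32.5 to 57.5. Neurons of the excitatory type were represented in all libraries, with Slc17a7, the main cortical vesicular glutamate transporter, at 201 to 364 FPKM.

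All 9 genes were expressed above the filter, a mean of 1 FPKM, and their order by mean level was Nlgn2, Nrxn2, Lrrtm1, Nrxn3, Lrrtm2, Lrrtm3, Nlgn3, Nlgn1 and Lrrtm4. Nlgn2 averaged 57.0 FPKM over the 6 libraries, from 44.4 to 65.4, and Nrxn2 averaged 33.9, from 22.2 to 45.8. Both were above the next gene of that order in 6 of 6 libraries. Lrrtm1 and Nrxn3, at 19.8 and 18.3, could not be ordered, since Lrrtm1 was the higher in 2 of 6 libraries, and neither could Lrrtm2 and Lrrtm3, at 14.3 and 13.7, with Lrrtm2 higher in 2 of 6. Nlgn3 (6.66) lay above Nlgn1 (5.01), and Nlgn1 above Lrrtm4 (2.93), in all 6 libraries. The range over libraries was narrow for Lrrtm4, with a ratio of the highest to the lowest value of 1.22, and wide for Nrxn2 and Lrrtm1, with ratios of 2.06 and 1.92.

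**Figure D1:**
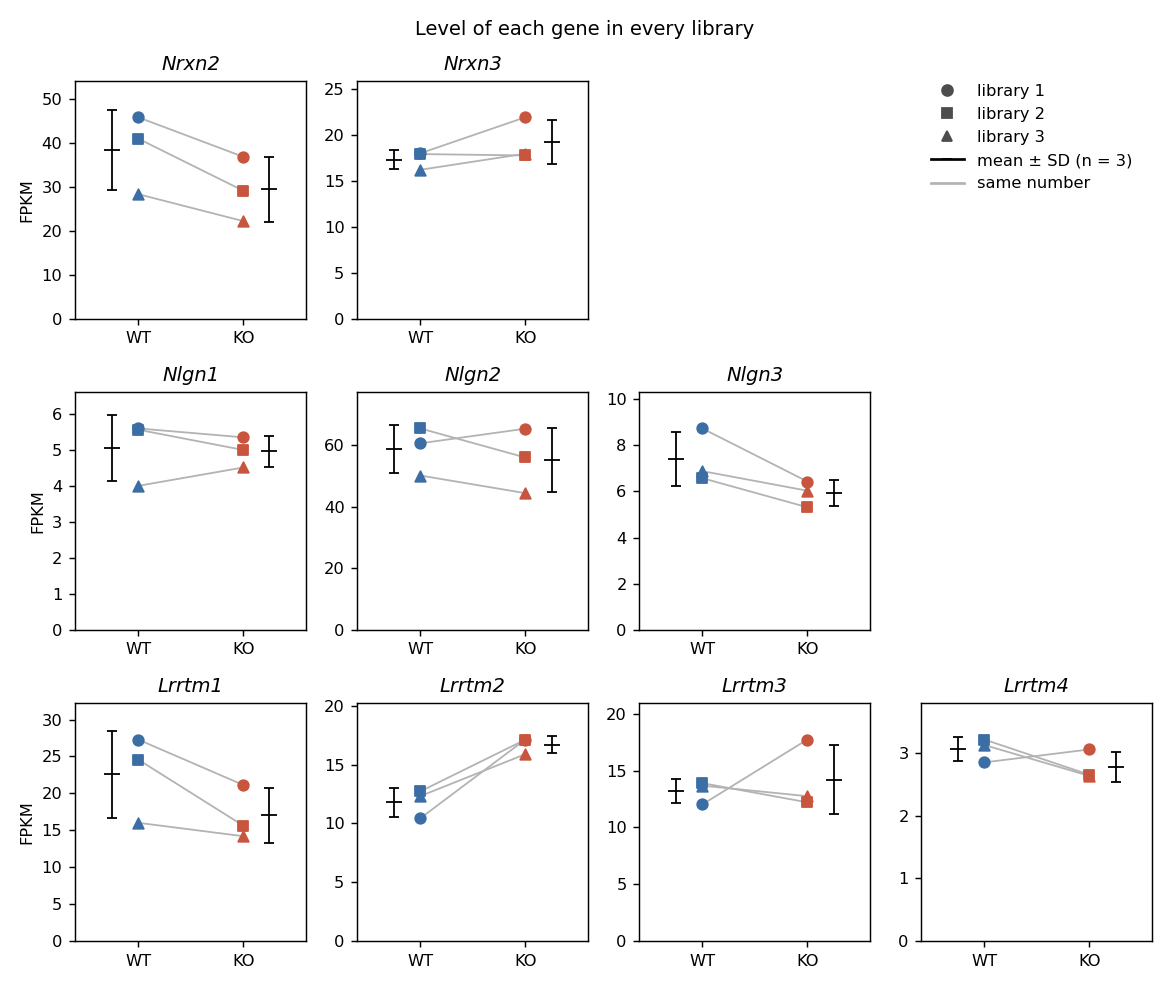
FPKM of the 9 genes (vertical axes, each from 0) in the WT and KO libraries, with grey lines between libraries of the same number and bars for the mean ± SD (n = 3). Lrrtm2 is the 1 gene whose KO points, 15.9 to 17.2, all lie above its WT points, 10.4 to 12.7, and Nlgn3 the 1 whose KO points all lie below.

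KO was compared with WT by limma on log2(FPKM + 1) over 13087 genes, with Benjamini-Hochberg adjustment, so fold changes are on that scale and understate changes of low genes. No member passed an adjusted p of 0.05 (0 of 9), where 0.00764% of all genes tested did. Cntnap4 itself did not pass either, with a log2 fold change of -0.92 (SE 0.18, limma adjusted p = 0.302). Its KO mean was 0.37 times its WT mean, so missing this threshold does not show that a gene is unchanged. At an unadjusted p under 0.05, 1 of the 9, Lrrtm2, was higher in KO, where 7.05% of all genes were, and 0 of 9 were lower, where 7.25% were. The 3 KO values lay above the 3 WT values for 1 of 9 (11.9% of all genes) and below them for 1 of 9 (10.1% of all genes). Of the 9 log2 fold changes 3 were positive and 6 negative, with a median of -0.095 against 0.0076 over all genes tested. Over all genes the main fit put 923 of 1872 genes with an unadjusted p under 0.05 higher in KO. That split was 1223 of 1805 with a common sum of FPKM and 695 of 1900 with a common sum of nuclear reads, and under both Lrrtm2 was the 1 member higher and 0 were lower. For a single gene, an exact permutation test of 3 libraries against 3 cannot give a two-sided p below 0.1, the value it gave for Lrrtm2 and for Nlgn3.

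Nrxn2, the presynaptic receptor with the highest level of the neurexins read here, was at 45.8, 41.0 and 28.3 FPKM in WT against 36.8, 29.1 and 22.2 in KO. In each group library 1 was highest and library 3 lowest, and WT3 lay below KO1 and KO2, so the groups overlapped. Its means were 38.4 ± 9.03 and 29.4 ± 7.32 FPKM (SD, n = 3), a ratio of 0.766. The log2 fold change was -0.37 (SE 0.23, 95% interval -0.92 to 0.17, limma adjusted p = 0.468). It was -0.57 without WT3, -0.24 without WT1 and -0.19 without KO3. The gene (ENSMUSG00000033768) lies on chromosome 19 from 6418731 to 6544169.

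Nrxn3 did not share this direction. WT1, WT2 and WT3 were at 18.0, 17.9 and 16.2 FPKM, and KO1, KO2 and KO3 at 21.9, 17.7 and 17.9. KO1 stood apart at the top, and the other KO values lay within the WT range. The log2 fold change was 0.13 (SE 0.11, 95% interval -0.13 to 0.40, limma adjusted p = 0.592), and -0.02 with the trend with gene length removed. Nrxn3 (ENSMUSG00000066392) spans 1612060 bases of chromosome 12, from 88722876 to 90334935, and Nrxn2 spans 125439, while the lengths the table uses for them are alike, at 12605 and 13812 bases.

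Among the neuroligins Nlgn3, known from both excitatory and inhibitory synapses and also made by glia, was the member whose KO libraries all lay under the WT range. It was at 8.73, 6.58 and 6.88 FPKM in WT against 6.43, 5.31 and 6.03 in KO. The gap between the lowest WT value, in WT2, and the highest KO value, in KO1, was small beside the spread within each group. Means of 7.40 ± 1.17 and 5.92 ± 0.57 FPKM gave a log2 fold change of -0.27 (SE 0.13, 95% interval -0.57 to 0.03, limma adjusted p = 0.374), which was -0.16 without WT1, the highest library.

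Nlgn2, the adhesion protein of inhibitory synapses, was at 60.6, 65.4 and 50.1 FPKM in WT against 65.3, 56.0 and 44.4 in KO. Library 3 was again the lowest of each group. The log2 fold change was -0.10 (SE 0.17, 95% interval -0.49 to 0.30), and 0.05 without KO3. Nlgn1 was at 5.60, 5.56 and 4.0 FPKM in WT against 5.35, 5.0 and 4.51 in KO, and its log2 fold change was -0.01 (SE 0.14, 95% interval -0.34 to 0.31). Neither differed beyond the spread between libraries, and on the scale of FPKM + 1 the intervals span ratios of 0.711 to 1.23 for Nlgn2 and 0.792 to 1.24 for Nlgn1. Nlgn2 made up 80.8% to 84.7% of the summed FPKM of the 3 neuroligins in the 6 libraries.

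Lrrtm2, a postsynaptic leucine-rich repeat ligand of neurexins, was the member with the smallest p. Its level was 10.4, 12.7 and 12.3 FPKM in WT1, WT2 and WT3 and 17.2, 17.1 and 15.9 in KO1, KO2 and KO3. The groups did not overlap, and the lowest KO value, in KO3, was above the highest WT value, in WT2. The means were 11.8 ± 1.22 and 16.7 ± 0.72 FPKM (SD, n = 3), a ratio of 1.41. The log2 fold change was 0.47 (SE 0.10, 95% interval 0.22 to 0.72), and its limma adjusted p of 0.302 did not pass. By p-value it ranked 95 among the 13087 genes. Without any 1 library the log2 fold change was 0.39 to 0.52 and the unadjusted p 0.00454 to 0.0138. The gene (ENSMUSG00000071862) lies on chromosome 18 from 35209011 to 35215024 on the minus strand in the table's coordinates, inside the span of Ctnna1 on the opposite strand.

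Lrrtm1, the most abundant of the Lrrtm genes in WT, went the other way on average. It was at 27.3, 24.6 and 16.0 FPKM in WT against 21.1, 15.6 and 14.2 in KO, in the order of their numbers. WT3 was low enough for the groups to overlap, and lay below KO1. Means of 22.6 ± 5.89 and 17 ± 3.67 FPKM gave a log2 fold change of -0.38 (SE 0.22, 95% interval -0.91 to 0.15, limma adjusted p = 0.452). Without WT3, one of the libraries high in striatal markers, the log2 fold change was -0.60 (adjusted p = 0.194), and without WT1 it was -0.23 (adjusted p = 0.740).

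The other Lrrtm genes differed less. Lrrtm3, at 12, 13.9 and 13.7 FPKM in WT against 17.7, 12.2 and 12.7 in KO, was high in KO1 alone, and its log2 fold change of 0.09 (95% interval -0.27 to 0.44) was -0.07 without that library. Lrrtm4, which is known to bind heparan sulfate proteoglycans, was at 2.85, 3.22 and 3.13 in WT against 3.06, 2.65 and 2.64 in KO. Its log2 fold change was -0.11 (95% interval -0.35 to 0.14), which leaves room for a small change in either direction. Both overlapped between the groups.

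**Figure D2:**
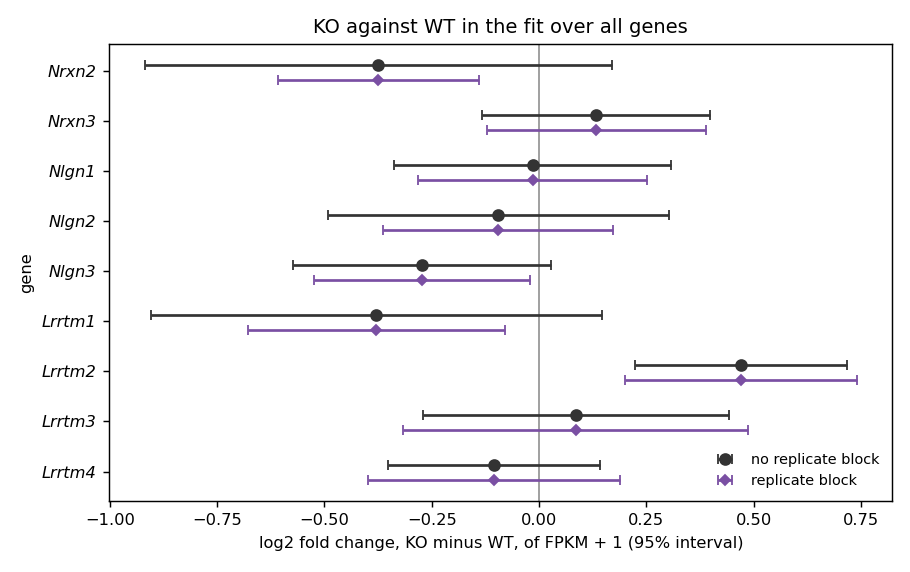
Log2 fold change of FPKM + 1, KO minus WT (horizontal axis), of each gene (vertical axis) with its 95% interval from the limma fit without a block (black circles) and with the replicate number as a block (purple diamonds). The interval of Lrrtm2 lies above 0 in both fits, and those of Nrxn2, Nlgn3 and Lrrtm1 lie below 0 with the block alone.

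The order of libraries within a group was alike for many of these genes. Of the 9 genes, 9 were highest in KO1 among the KO libraries and 6 were lowest in KO3, while 5 were lowest in WT3 among the WT libraries. The share of all genes with these extremes was not computed, so the counts are not read as particular to these genes. Nrxn2, Nlgn1, Nlgn2 and Lrrtm1 were lowest in library 3 of both groups. Those are the libraries high in striatal markers and in mitochondrial reads, and the part of these in the levels was not tested.

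Within same-numbered pairs, Nrxn2 in KO was 0.804, 0.711 and 0.784 times its WT value for numbers 1, 2 and 3. Lrrtm1 was at 0.775, 0.636 and 0.886 times and Nlgn3 at 0.736, 0.808 and 0.876 times, and Lrrtm2 at 1.64, 1.35 and 1.29 times. Thus 3 of 9 genes were lower in KO in all 3 pairs, where 21.7% of all genes were, and 1 of 9 was higher in all 3, where 23.2% were. With the replicate number as a block in the limma fit, 3 of 9 were lower at an unadjusted p under 0.05, where 9.92% of all genes were, and 1 of 9 was higher, where 7.86% were. The unadjusted limma p with the block was 0.00851 for Nrxn2, 0.0217 for Lrrtm1, 0.0379 for Nlgn3 and 0.00585 for Lrrtm2. Their adjusted p was 0.221 to 0.263, so 0 of 9 passed over all genes with the block too. The count of lower members without a block also moved with other choices. Nrxn2 and Lrrtm1, 2 of 9, were lower at that unadjusted threshold when WT3 was left out, where 9.65% of all genes were, and also when WT3 and KO3 both were, where 7.98% were. With sample weights 3 of 9 were lower, Nrxn2, Nlgn3 and Lrrtm1 (11.7% of all genes), and with the length trend removed 1 of 9, Nlgn3 (5.67% of all genes).

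Relative levels were also taken within each library, as shares of the Lrrtm sum and as 4 ratios between genes of a family. Lrrtm1 made up 51.9%, 45.2% and 35.5% of the summed Lrrtm FPKM in WT against 35.8%, 32.8% and 31.2% in KO, and Lrrtm2 19.8%, 23.4% and 27.3% in WT against 29.0%, 36% and 35% in KO. The groups overlapped in the share of Lrrtm1, through WT3 and KO1, and not in that of Lrrtm2. The sum itself was 50.7 ± 4.88 FPKM in WT against 50.7 ± 7.32 in KO. Lrrtm2 stood at 0.383, 0.518 and 0.770 times the level of Lrrtm1 in WT against 0.811, 1.10 and 1.12 times in KO. Nrxn2 stood at 2.55, 2.29 and 1.75 times the level of Nrxn3 in WT against 1.68, 1.64 and 1.24 times in KO. The groups did not overlap in these 2 ratios. They overlapped in the other two, with Nlgn2 at 10.8 to 12.5 times the level of Nlgn1 in WT against 9.84 to 12.2 times in KO, and at 6.94 to 9.95 times that of Nlgn3 against 7.36 to 10.5 times. The ratios were chosen with the values known, and they carry no test. In the 2 ratios without overlap the genes had fold changes of opposite sign, as given above, so these ratios are not separate evidence. The share of all gene pairs without overlap was not computed.

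**Figure D3:**
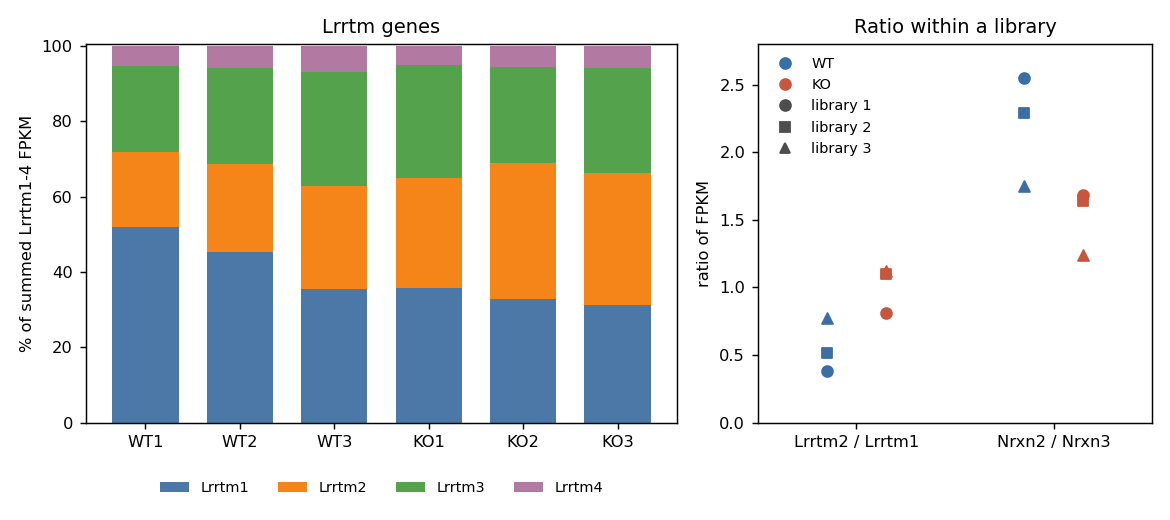
Left, share of the summed FPKM of the 4 Lrrtm genes (vertical axis, percent) taken by each gene in the 6 libraries. Right, ratio of FPKM of Lrrtm2 to Lrrtm1 and of Nrxn2 to Nrxn3 in each WT (blue) and KO (red) library, with the KO points at 0.811 to 1.12 for the first ratio and at 1.24 to 1.68 for the second. The ratios of Nlgn2 to Nlgn1 and to Nlgn3, which overlapped between the groups, are not drawn.

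Of the Lrrtm genes 3 lie within genes of alpha-catenins, the proteins that link cadherins to actin, on the opposite strand. The sources used here do not say whether counting used strand, so reads of each pair cannot be told apart with certainty. Ctnna1, around Lrrtm2, was at 18.9 ± 4.83 FPKM in WT against 19.9 ± 1.11 in KO, and its log2 fold change was 0.09 against 0.47 for Lrrtm2. Ctnna2, around Lrrtm1, was at 18.1 ± 1.19 and 22.0 ± 0.86, higher in every KO library (log2 fold change 0.27, limma adjusted p = 0.311) while Lrrtm1 was lower on average. Ctnna3, around Lrrtm3, was below the filter at 0.178 ± 0.08 and 0.225 ± 0.07. Nrxn2 overlaps 3 genes of the opposite strand, of which the antisense transcript Gm14964 had the highest level, at 2.65 ± 0.09 FPKM in WT against 1.48 ± 0.51 in KO. The genes overlapping Nrxn3, Nlgn1, Nlgn3 and Lrrtm4 were at WT means of 0.381 FPKM or less, and none in the table overlapped Nlgn2.

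Other genes of this adhesion system or related to it were taken from 8 lists of 85 genes, of which 79 passed the filter. The lists include other leucine-rich repeat adhesion genes and the alpha-catenins, whose genes surround Lrrtm genes. No gene of the lists passed the adjusted threshold (0 of 79). At an unadjusted limma p under 0.05, 12 of 79 (15.2%) were higher in KO and 1 (1.27%) was lower, against the 7.05% and 7.25% of all genes given above. The 12 include 1 alpha-catenin, Ctnna2, and 2 of the other leucine-rich repeat genes, so the share is not that of neurexin partners alone. Both counts moved with the libraries used, and so did the share of all genes. Higher were 7 without WT1, 5 without KO1 and 6 without KO2, where 4.26%, 4.15% and 2.90% of all genes were. Lower were 6 with the replicate block and 9 without WT3, where 9.92% and 9.65% of all genes were, and the lower count ran from 0 to 9 over the 18 alternatives. Apart from Gphn, Lin7b and Lin7c, the genes of these lists named below were among the 2 of smallest p in their list. Every limma adjusted p among the genes named, Gphn included, was 0.302 or more. For the counts of positive log2 fold changes below, the share of all genes was not computed. The median log2 fold change over all genes tested was 0.0076. It was 0.0556 with a common sum of FPKM and -0.0292 with a common sum of nuclear reads.

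Of 21 tested extracellular partners of neurexins or neurexin ligands, 10 log2 fold changes were above 0 and 11 below, with a median of -0.043. Clstn2, a calsyntenin, was at 12.3 ± 3.95 FPKM in WT against 22.3 ± 5.32 in KO (log2 fold change 0.83, SE 0.26). Cbln2, a secreted protein that bridges neurexins to delta-type glutamate receptors, was at 7.74 ± 3.53 and 13.8 ± 2.20 (log2 fold change 0.85, SE 0.32). Both were higher in every KO library, and both were lowest in WT1, at 8.26 and 3.77 FPKM. Mdga1, which blocks the binding of neuroligins to neurexins, was the 1 lower gene, at 3.26, 3.05 and 2.55 FPKM in WT against 1.34, 1.19 and 2.05 in KO (log2 fold change -0.66, SE 0.16). Mdga2, its paralog, was at 2.62 ± 0.48 and 3.09 ± 0.11 with overlap.

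On the presynaptic side, 6 of 8 adaptors of the neurexin tail had a positive log2 fold change. Cask, the PDZ scaffold and kinase that binds this tail, was at 7.49 ± 0.53 FPKM in WT against 9.34 ± 0.40 in KO (log2 fold change 0.29, SE 0.09), and Lin7a, its partner, at 5.17 ± 1.49 and 8.44 ± 1.06 (0.64, SE 0.19). The paralogs Lin7b and Lin7c were the 2 adaptors below 0, with log2 fold changes of -0.30 and -0.09. On the postsynaptic side 6 of 10 tested partners were positive. Magi2, a scaffold, was at 10.3 ± 2.56 and 14.6 ± 1.55 and had the smallest p of its list, and Dlg4, the PSD-95 scaffold that binds the tails of neuroligins, was at 63.9 ± 7.90 and 53.5 ± 5.68 with overlap. Gphn, the scaffold of inhibitory synapses that binds Nlgn2, was at 16.5 ± 1.01 and 18.5 ± 2.08, also with overlap.

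Regulators of alternative splicing had a positive log2 fold change for 9 of 11, with a median of 0.208 against 0.0076 over all genes tested. Nova1 was at 6.63, 7.64 and 6.82 FPKM in WT against 9.80, 10.3 and 9.21 in KO (log2 fold change 0.43, SE 0.10), and Srrm4, a regulator of neuronal microexons, at 4.67 ± 0.85 and 6.59 ± 0.78 (0.43, SE 0.14). No splice form was measured here. Of the shedding and heparan sulfate genes 8 of 14 were positive, with Adam10, a protease that sheds synaptic adhesion proteins, at 17.9 ± 0.60 and 21.2 ± 0.65 and Ext1, of heparan sulfate synthesis, at 4.48 ± 1.20 and 6.86 ± 1.73. Of the other leucine-rich repeat adhesion genes 6 of 11 were positive, with Flrt2 at 8.46 ± 2.46 and 12.8 ± 0.97 and Lrrc4c, a netrin-G ligand, at 23.7 ± 2.91 and 32.7 ± 4.97.

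**Figure D4:**
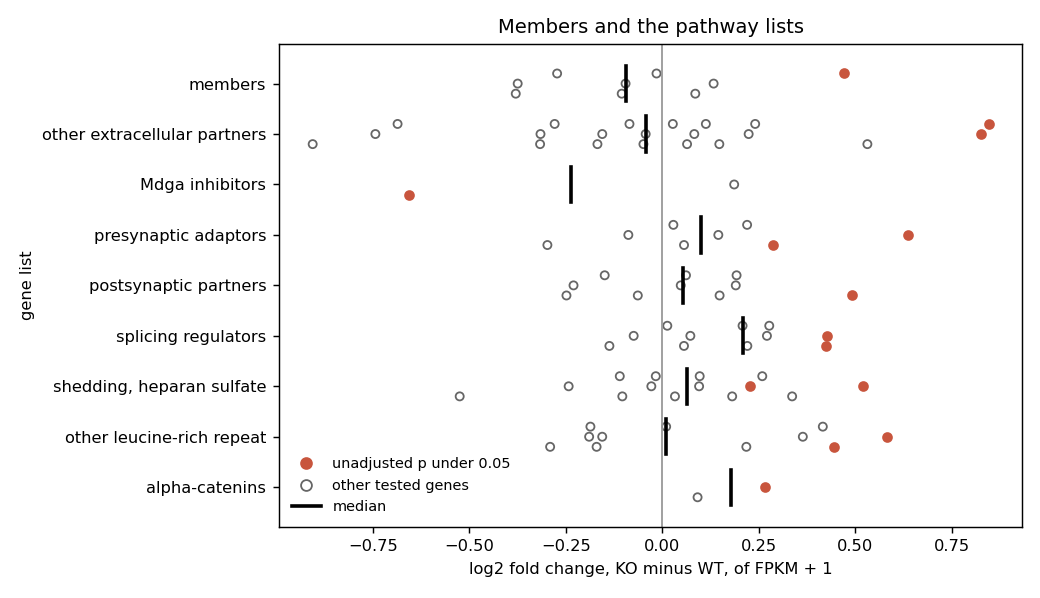
Log2 fold change of FPKM + 1, KO minus WT (horizontal axis), of the 9 members and of the tested genes of 8 related lists (vertical axis), with filled red points for an unadjusted limma p under 0.05 and black bars for medians. Of the list genes 12 filled points lie to the right of 0 and 1, Mdga1, to the left.

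Of 10 lists of cell type markers, none held a gene past the adjusted limma threshold (0 in each), and the counts below use an unadjusted p under 0.05. At that limma threshold 7.05% of all genes tested were higher in KO and 7.25% were lower. In bulk tissue, fewer cells of a type and less RNA per cell cannot be told apart. Of 8 excitatory neuron markers 3 were higher, among them Neurod6 (14.1 ± 6.13 and 30.0 ± 3.67 FPKM) and Tbr1 (28.5 ± 7.93 and 46.1 ± 6.43), and the summed level was 1342.7 to 2016.4 in WT against 1582.8 to 1985.3 in KO. Of 9 inhibitory neuron markers 2 were lower, Slc32a1, the vesicular GABA transporter, and Sst, and the sum, to which Sst gave the most, was 598 to 751 in WT against 542 to 606 in KO. The other inhibitory markers did not share that direction, since 5 of the 9 log2 fold changes were positive and Gad1, which makes GABA, had 44.2 to 51.9 FPKM in WT against 52.4 to 60.7 in KO. All 4 markers of oligodendrocyte precursors were lower, with sums of 24.7 to 34.8 in WT and 15.2 to 19.4 in KO. Of 6 microglial markers 3 were lower, with sums of 125 to 169 and 84.9 to 104, where 7.25% of all genes were lower. By a different count, all KO values lay below all WT values for 4 of 4 and 4 of 6 of these markers, where 10.1% of all genes did. Of 7 striatal markers, 0 were higher and 1, Penk, was lower, with sums of 109 to 830 and 54.9 to 343. Pan-neuronal markers (2 of 5 higher) summed to 699 to 803 in WT against 878 to 962 in KO. The higher genes were Snap25 and Syt1 of vesicle release, while Map2, of the dendritic cytoskeleton, had 75.4 to 78.6 FPKM in WT against 69.0 to 74.6 in KO and Tubb3 a log2 fold change of -0.14. Astrocyte markers (1 of 7 lower) summed to 533 to 841 against 576 to 655, and meningeal markers (2 of 3 tested lower) to 6.21 to 17.4 against 4.20 to 6.93. Of 6 oligodendrocyte and 4 endothelial markers 0 had an unadjusted p under 0.05, with sums of 227 to 673 against 463 to 657 and of 36.7 to 68 against 36.6 to 48.8. No listed marker was below 0.1 FPKM in every library. The part of these differences in the levels of neurexins, neuroligins and Lrrtm genes was not tested.

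For 8 members the protein-coding gene with the nearest pattern is given, taken among 11519, by the root mean square difference of log2(FPKM + 1) over the 6 libraries, each gene centred on its mean. For Lrrtm2 it was Pcdhb16, a clustered protocadherin, with a difference of 0.0323, at 1.14 ± 0.20 FPKM in WT against 1.89 ± 0.12 in KO. Slc22a17, a receptor for lipocalin, was nearest to Nrxn2 (0.0427), Igsf8 to Nlgn2 (0.0319), Sdf2 to Nlgn3 (0.0297), Tmem178b to Nrxn3 (0.0230), Klhdc8b to Lrrtm1 (0.0577), Rai14 to Lrrtm3 (0.0700) and Ndufs3 to Lrrtm4 (0.0266). Among the members themselves the closest pair was Nrxn2 and Lrrtm1, at 0.0756, with 5 other genes nearer to Nrxn2 and 7 nearer to Lrrtm1. With 6 libraries and this many candidates some gene lies near any pattern.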

How the data were processed

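RNA-seq was available for 6 libraries of basolateral amygdala. The labels' protocols name total RNA from an RNeasy kit and SMARTER library preparation. The authors deposited 1 table of FPKM per gene, with gene length, position and strand per the file headers. The submitters' processing notes name the builds GRCm38 and mm10. An aligner, a counter, an annotation version and the use of strand were not given in the sources used here. FPKM times gene length gave whole multiples of 1 step in each library for 100% of values (tolerance 0.01 reads), which gave the reads. The library sizes that the deposited FPKM imply were 0.964 to 1.05 times the sums of these reads, so the libraries were scaled by more than their totals.

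The 13087 genes at a mean of 1 FPKM or more were tested as log2(FPKM + 1) with limma 3.58.1 in R 4.3.3 (variance trend, two-sided, Benjamini-Hochberg, threshold 0.05, no covariate). The fit was run before use on simulated counts drawn independently for each library. Those counts lack the differences in tissue markers between libraries seen here, so they do not show how the fit behaves with them. Exact permutation tests used scipy 1.17.1. Alternatives were another scaling, pseudocount, filter and variance model, removal of the length trend, voom on the recovered reads, the replicate block and leaving out libraries. Deviations of same-numbered WT and KO libraries from their group means correlated at 0.175, 0.145 and 0.330 across genes for numbers 1, 2 and 3. The number was a block in an alternative fit only, and the main fit took the libraries as unpaired. The labels do not say what a number shares, and WT2 and KO1, of different numbers, correlated at 0.283, above 2 of the same-numbered pairs. Named genes were the members, Cntnap4, genes overlapping a member, the 2 genes of smallest p in each pathway list, and the nearest pattern for each member, of which that for Nlgn1 is not reported here. The members and lists were chosen with earlier results of these data known. Marker genes and Gphn were named for their role, and Lin7b and Lin7c as paralogs of Lin7a, after their values were seen.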

Additional observations from a re-analysis of the deposited data

How the results depend on the processing

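No member passed the adjusted threshold in any of the 18 alternatives (0 of 161 values), and 153 of those values kept the direction of the main result. Lrrtm1, Lrrtm2, Lrrtm4, Nrxn2 and Nlgn3 kept it in every alternative run. Lrrtm2 had a log2 fold change of 0.39 to 0.53 and an unadjusted p under 0.05 in 18 of 18 (limma adjusted p 0.0904 to 0.685). The direction turned for 4 genes near 0. Nlgn1 was at 0.0321 with a common sum of FPKM, Nrxn3 at -0.016 with the length trend removed and Lrrtm3 at -0.0384 with sample weights. Leaving out 1 library gave -0.1469 to 0.0531 for Nlgn1 (above 0 without WT1, WT2 or KO3), -0.2229 to 0.0509 for Nlgn2 (above 0 without KO3) and -0.0731 to 0.1794 for Lrrtm3 (below 0 without KO1). The cause was not tested. With the replicate block the log2 fold changes were the same, 2327 genes had an unadjusted p under 0.05 against 1872, and 0 passed the adjusted threshold against 1. That adjusted count was also 0 with quantile normalization, the length trend removed, no filter, no variance trend, without both libraries numbered 3 and with a common sum of nuclear reads. It was 0 to 9 with 1 library left out, 9 without WT3. The unadjusted count was 1219 and the count of genes with KO outside the WT range 1835 (main 2880) at a mean FPKM of at least 5, where 7621 genes were tested. The unadjusted count was 2852 with sample weights and 879 (without KO2) to 2414 (without WT3) with 1 library left out. Depth limits Lrrtm4 most, at 267 to 328 reads per library. The comparison without both libraries numbered 3 and that of nuclear reads were chosen after seeing the data.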
